A study of Mus musculus with 23 samples.

Results

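The effect of a higher dose of free ovalbumin (OVA) on OT-II CD4 T cells was examined in 5 of the 23 libraries of the series, 2 from mice given higher-dose OVA (replicates 2 and 3) and 3 from mice given saline (replicates 1 to 3). These libraries were chosen by their titles, which carry the number 5, with no unit, for higher-dose OVA. OT-II cells bear a transgenic receptor for an OVA peptide presented on MHC class II. They had been transferred, beside OT-I CD8 T cells, into C57BL/6 mice that received antigen or saline 1 day later, and were sorted 5 days after transfer. Both groups share this transfer, the pooling of spleen and lymph nodes before the sort, and the pooling of 3 mice for each library. The cell type field of the CD4 libraries spells the cells "OT-i", whereas the titles and the series text give OT-II. The other OT-II groups had 3 libraries each and received the molar equivalent of OVA (0.5 in the titles) or A8B1-OVA at 1 ug. The labels do not say what A8B1 is.

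A naive CD4 T cell that meets its peptide on a dendritic cell divides and takes up one of several fates. With inflammation it may become an effector or a follicular helper cell, which uses the receptor CXCR5 to enter B cell follicles. When antigen arrives without inflammation, the cell may instead be deleted, become a regulatory cell or enter anergy, a poorly responsive state marked by folate receptor 4 (Izumo1r) and CD73 (Nt5e). Free soluble protein has long been used to study this second outcome.

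Few genes passed the test in this comparison. Of 14757 genes tested with edgeR's quasi-likelihood test, 4 had an adjusted p (Benjamini-Hochberg) under 0.05 and are called changed here, which is 0.0271% of all genes. The genes Cxcr5, P2rx7 and Gm5157 rose with higher-dose OVA (0.0203% of genes called higher), and Irf2bp2 fell (0.00678% called lower). At an unadjusted p under 0.05 there were 872 genes (5.91%), of which 533 were higher and 339 lower. DESeq2 called 81 genes, 58 higher and 23 lower. Among them were Izumo1r, Ctla4, Slamf6, Il2rb, Itgb1, Smc4, Lad1, Capn3, Myb and Lrmp, all higher and described below. These genes were not called by edgeR, whose 4 calls were all among the 81. The calls rested on few libraries: none remained when higher-dose OVA replicate 2 or 3, or saline replicate 2 or 3, was left out. Without saline replicate 1 there were 4 calls, 2 of them shared with the full set (Cxcr5 and Irf2bp2).

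**Figure D1:**
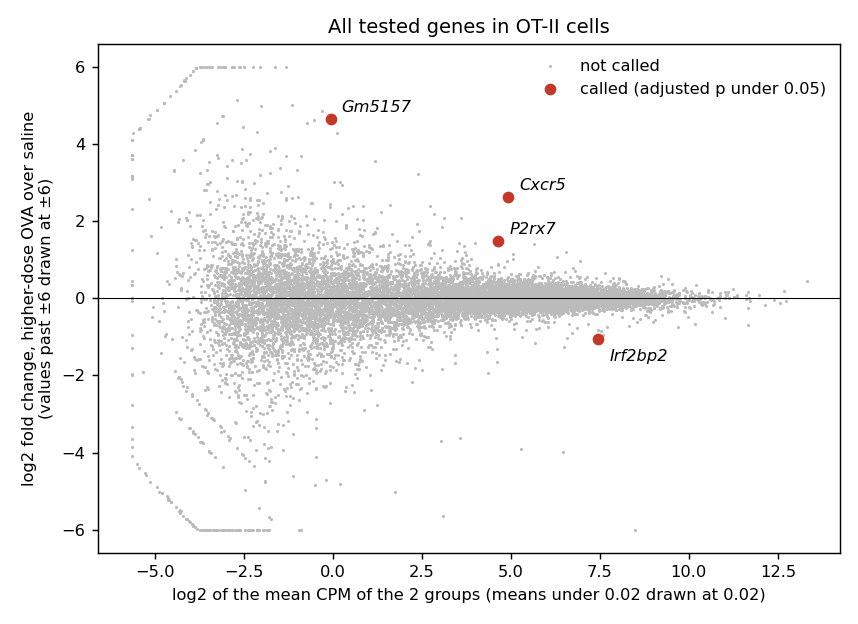
Each point is a gene tested in OT-II cells. The horizontal axis gives the log2 of the mean TMM-normalised count per library size (CPM) of both groups, and the vertical axis the log2 fold change of higher-dose OVA over saline. The 4 called genes are red and named. Cxcr5 (2.62), P2rx7 (1.48) and Gm5157 (4.65) lie above 0 and Irf2bp2 (-1.06) below it, while many genes of low level scatter as far without passing the test.

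Total counts were 62.1 M and 52.3 M in the higher-dose libraries and 51.5 M, 57.4 M and 45.1 M in the saline libraries. The labelled cell type was matched by its markers. The 11 T cell markers summed to 9461 and 9084 CPM with higher-dose OVA and to 8856 to 9526 with saline. The 4 CD4 T cell markers summed to 990 and 1019 CPM against 969, 965 and 959. The 5 CD8 T cell markers summed to 59.6 and 56.9 CPM against 75.4, 56.2 and 55.8. Cd4 was 721 and 661 CPM against 572 to 644, while the other 3 CD4 T cell markers had negative log2 fold changes. Saline replicate 1 stood apart. The 29 myeloid and dendritic cell markers summed to 529 and 541 CPM with higher-dose OVA, against 1258 CPM in saline replicate 1 and 510 and 556 CPM in the other saline libraries. The 20 B cell markers summed to 421 and 426 CPM with higher-dose OVA, against 975 CPM in saline replicate 1 and 351 and 321 CPM in the other saline libraries. Erythroid markers summed to 356 and 474 CPM with higher-dose OVA and to 1188, 259 and 759 with saline. No marker of these cell types was called. Their part in the results was not tested. Values from the fit without saline replicate 1 are given beside the named genes and list medians that it moved most. In bulk libraries of sorted cells, a change in the number of cells of one kind and a change in RNA per cell cannot be told apart.

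Cxcr5 encodes the receptor for CXCL13 that brings follicular helper cells, and B cells, into follicles. It lies at chr9:44511787-44561877 on the minus strand (GRCm38). Its level was 51.9 and 53.1 CPM with higher-dose OVA, against 11.1, 5.47 and 9.03 CPM with saline. Both higher-dose libraries were several times above every saline library. The log2 fold change was 2.62 ± 0.35 (SE), with an edgeR adjusted p of 0.0329. B cell markers, as given above, summed to 421 and 426 CPM with higher-dose OVA, and saline replicate 1, with the highest sum of these markers, had 11.1 CPM of Cxcr5. Without that library the log2 fold change was 2.87 (adjusted p = 0.0422). Among 13 alternative fits the log2 fold change ran between 2.38 and 2.87, and 7 of them called the gene, with adjusted p from 1.15e-10 to 0.393. It was not called in a fit limited to the libraries of both groups (adjusted p = 0.0505).

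P2rx7 encodes an ATP-gated ion channel that, in mouse T cells, takes part in shedding of surface proteins, in cell death and in the control of follicular helper cells. It lies at chr5:122643911-122691432 on the plus strand. Its level was 38.9 and 34.9 CPM with higher-dose OVA and 12.2, 13.8 and 13.8 CPM with saline. The libraries of each group lay close together and far from the other group. The log2 fold change was 1.48 ± 0.20 (SE), with an edgeR adjusted p of 0.0344. Without saline replicate 1 it was 1.43 and the call was lost (adjusted p = 0.104, within 7.55e-08 to 0.508 over the 13 alternatives, of which 5 called the gene).

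Irf2bp2 encodes a nuclear corepressor that binds IRF2 and represses NFAT1 activity. It lies at chr8:126588296-126593986 on the minus strand. It had 128 and 101 CPM with higher-dose OVA, against 273, 210 and 231 CPM with saline. No saline library was as low as either higher-dose library. The log2 fold change was -1.06 ± 0.13 (SE), with an edgeR adjusted p of 0.0329. In a fit of both cell types the value was -1.05 but the call was lost (adjusted p = 0.315, the highest of the 13 alternatives, whose lowest was 2.12e-10). Over these 13 fits the log2 fold change ran from -1.24 to -0.89, and 5 of them called the gene.

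Gm5157 is a predicted gene at chr7:21184317-21190423 on the minus strand. It was listed at 2.19 and 1.51 CPM with higher-dose OVA and at 0.0789, 0.0688 and 0.0671 CPM with saline, near the 0.0523 to 0.0665 CPM that a count of 0 allows in those libraries (3 counts of the total, counting error only). The fitted log2 fold change was 4.65 ± 0.62 (SE, edgeR adjusted p = 0.0329). Over 13 alternative fits it ran from 4.35 to 4.89, and 5 of them called the gene. Of its 31-base words 94.7% also occur in other genes, mostly Gm4513, so which gene the estimated counts belong to is uncertain.

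The set of promoter stretches used held none for Cxcr5. The stretches upstream of P2rx7 and Irf2bp2 are shown because these genes moved in opposite directions. They are the 250 bases before the first annotated start of each gene, from RefSeq on GRCm38.p6, at chr5:122643677-122643926 (plus strand) and chr8:126593987-126594236 (minus strand). Capitals mark matches to an AP-1 motif (TGANTCA) or the NFAT core (GGAAA), both factors downstream of the T cell receptor, searched on both strands with the NR4A motif AAAGGTCA.
P2rx7: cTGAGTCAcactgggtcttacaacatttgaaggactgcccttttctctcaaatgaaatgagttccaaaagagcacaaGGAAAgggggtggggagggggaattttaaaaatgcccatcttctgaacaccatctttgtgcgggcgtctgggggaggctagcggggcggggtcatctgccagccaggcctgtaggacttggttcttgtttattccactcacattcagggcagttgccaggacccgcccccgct
Irf2bp2: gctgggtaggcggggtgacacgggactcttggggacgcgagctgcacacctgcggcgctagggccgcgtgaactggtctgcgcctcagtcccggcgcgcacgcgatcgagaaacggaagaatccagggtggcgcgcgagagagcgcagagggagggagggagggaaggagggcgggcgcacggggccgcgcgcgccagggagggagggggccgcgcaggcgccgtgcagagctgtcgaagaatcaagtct
The P2rx7 stretch held 1 AP-1 match and 1 NFAT core match, and no NR4A match. In the Irf2bp2 stretch none of the 3 motifs was found. Across 32851 promoter stretches of the same length, 6.75% held the AP-1 motif, 55.6% the NFAT core and 1.34% the NR4A motif. A second P2rx7 start had no match. These matches describe the letters only and say nothing of binding.

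The next genes by adjusted p were also higher with higher-dose OVA, but were not called. They were picked after their values were seen. Lad1, which encodes the anchoring protein ladinin, had 19.6 and 17.3 CPM with higher-dose OVA, against 6.31, 9.61 and 9.39 CPM with saline (adjusted p = 0.0631). Capn3, a calcium-dependent protease, had 20.4 and 19.1 CPM against 4.12, 4.25 and 5.63 (adjusted p = 0.0643). Myb, a transcription factor of lymphoid progenitors, had 116 and 98.6 CPM against 40.0, 61.6 and 50.4 (adjusted p = 0.0771). Lrmp, a membrane protein of the endoplasmic reticulum in lymphocytes, had 146 and 127 CPM against 72.0, 78.6 and 85.7 (adjusted p = 0.0775). Of the 13 alternative fits, 4 called Capn3, 4 called Myb, 3 called Lad1 and 2 called Lrmp. For none of these 4 genes did the groups overlap. Over all genes, the higher-dose libraries were both above every saline library for 11% of genes and both below for 10%.

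**Figure D2:**
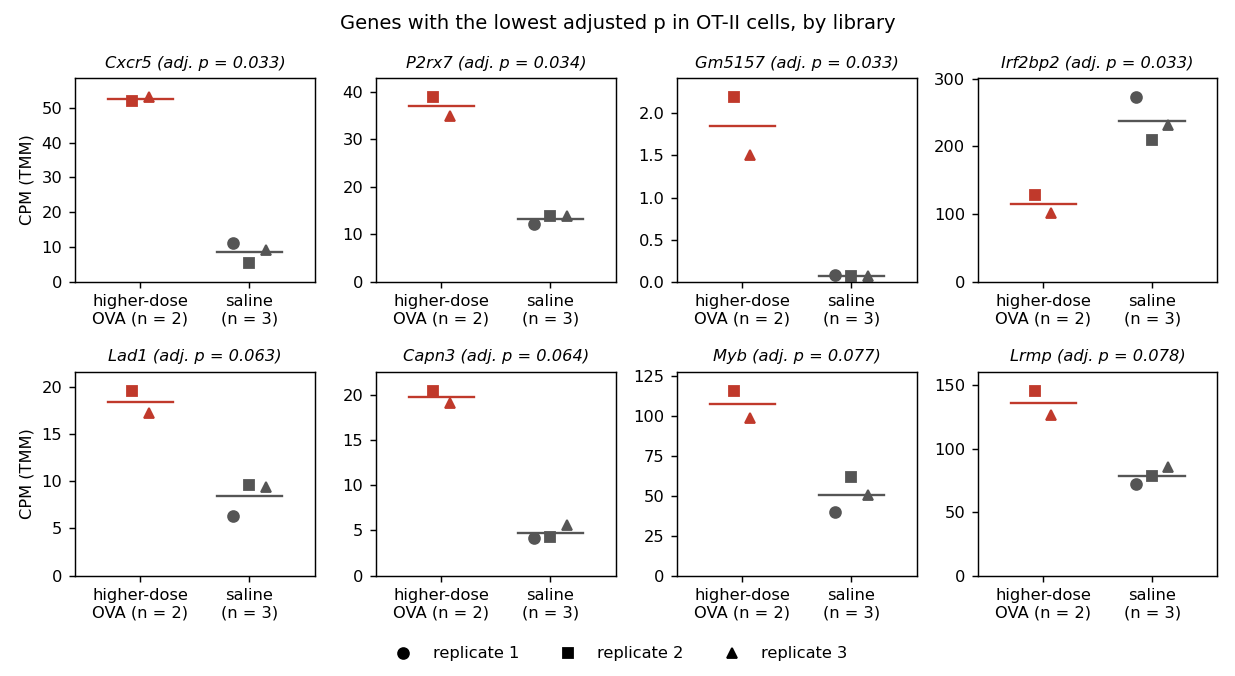
TMM-normalised CPM per library for the 4 called genes (top) and the 4 genes next in adjusted p (bottom), with higher-dose OVA left of saline, symbols for the replicate number and lines at the group means. The groups do not overlap in any panel, and the adjusted p in each title is from edgeR.

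Of the 24 follicular helper-associated genes, Cxcr5 and P2rx7 were called higher, none was called lower and 22 were not called. Over all genes 0.0271% were called. The list thus held 2 of the 4 calls, but it was chosen with earlier results of these data known. That count is therefore not a test of the list. At an unadjusted p under 0.05, 9 of its genes were higher (37.5%) and 1 lower (4.17%), against 3.61% and 2.3% of all genes. The list's median log2 fold change was 0.12, beside -0.01 over all genes, and 0.41 without saline replicate 1. All lists were chosen in that way, so neither these shares nor those of the lists below test a list. Some genes, such as Ctla4 and Izumo1r, are on several lists, so the shares of the lists are not separate results. Bcl6, the factor that defines the follicular helper fate, had 15.1 and 21.5 CPM with higher-dose OVA, against 19.99, 15.6 and 13.5 CPM with saline (log2 fold change 0.16, adjusted p = 0.984). Its libraries overlapped, and its value was 0.34 without saline replicate 1 and -0.11 without higher-dose OVA replicate 3.

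Several surface proteins of the same list lay above saline without passing the test. Slamf6, a receptor of the SLAM family, had 274 and 273 CPM with higher-dose OVA, against 189, 189 and 193 CPM with saline (log2 fold change 0.52 ± 0.12 SE, adjusted p = 0.298). Icos, a costimulatory receptor, had 68.3 and 84.1 CPM against 59.6, 50.2 and 57.0 (0.45, adjusted p = 0.416). Il6st, the signalling chain shared by the receptors of the IL-6 family, had 303 and 321 CPM against 187, 240 and 224 (0.53, adjusted p = 0.587). The ligand-binding chain Il6ra lay the other way, at 117 and 165 CPM against 182, 173 and 202 (-0.40, adjusted p = 0.805). None of these genes overlapped between the groups, as was the case for 21% of all genes.

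None of the 29 anergy-associated genes passed the edgeR test, while DESeq2 called Izumo1r (adjusted p = 0.000538) and Ctla4 (adjusted p = 0.0040) higher. At an unadjusted p under 0.05, 8 were higher and 2 lower, against 3.61% and 2.3% of all genes, and the list's median log2 fold change was 0.19. On this list 13 genes were above saline in both higher-dose libraries and 2 below, against 11% and 10% of all genes. Izumo1r had 144 and 119 CPM with higher-dose OVA, against 70.9, 48.5 and 52.2 CPM with saline. Both higher-dose libraries exceeded all saline libraries, with a log2 fold change of 1.20 ± 0.23 (SE) and an adjusted p of 0.202. Nt5e, the other surface marker of anergic CD4 cells, overlapped between the groups at 16.9 and 11.6 CPM against 25.7, 13.7 and 15.04 (-0.35, adjusted p = 0.963; -0.0042 without saline replicate 1). Dgkz and Cblb, which restrain receptor signalling as a lipid kinase and a ubiquitin ligase, had log2 fold changes of 0.33 and 0.43 (adjusted p = 0.597 and 0.703). The libraries of both genes did not overlap. The ubiquitin ligase Rnf128 (GRAIL) stayed near 2 CPM, at 2.11 and 1.49 with higher-dose OVA against 2.21, 1.51 and 2.86 with saline.

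Among 21 inhibitory receptors and ligands none was called, and the median log2 fold change was 0.11 (0.31 without saline replicate 1). Of these, 4 were higher (19%) and 0 lower at an unadjusted p under 0.05, against 3.61% and 2.3% of all genes. Ctla4, the checkpoint receptor that competes with CD28, had 37.5 and 54.8 CPM with higher-dose OVA, against 23.8, 16.3 and 22.7 CPM with saline. Its groups did not overlap (log2 fold change 1.14 ± 0.24 SE, adjusted p = 0.259). Cd200, a ligand of an inhibitory myeloid receptor, had 40.7 and 49.7 CPM against 24.6, 17.4 and 24.8 (1.02, adjusted p = 0.590). Pdcd1, which encodes PD-1, had 25.3 and 28.4 CPM against 29.97, 14.5 and 12.9 (0.49, adjusted p = 0.933). Its highest level was in saline replicate 1, the library with raised markers of other cells, and without that library the log2 fold change was 0.98 (adjusted p = 0.311, not called). Lag3 stayed low, at 1.42 and 1.3 CPM against 1.22, 0.894 and 1.27.

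**Figure D3:**
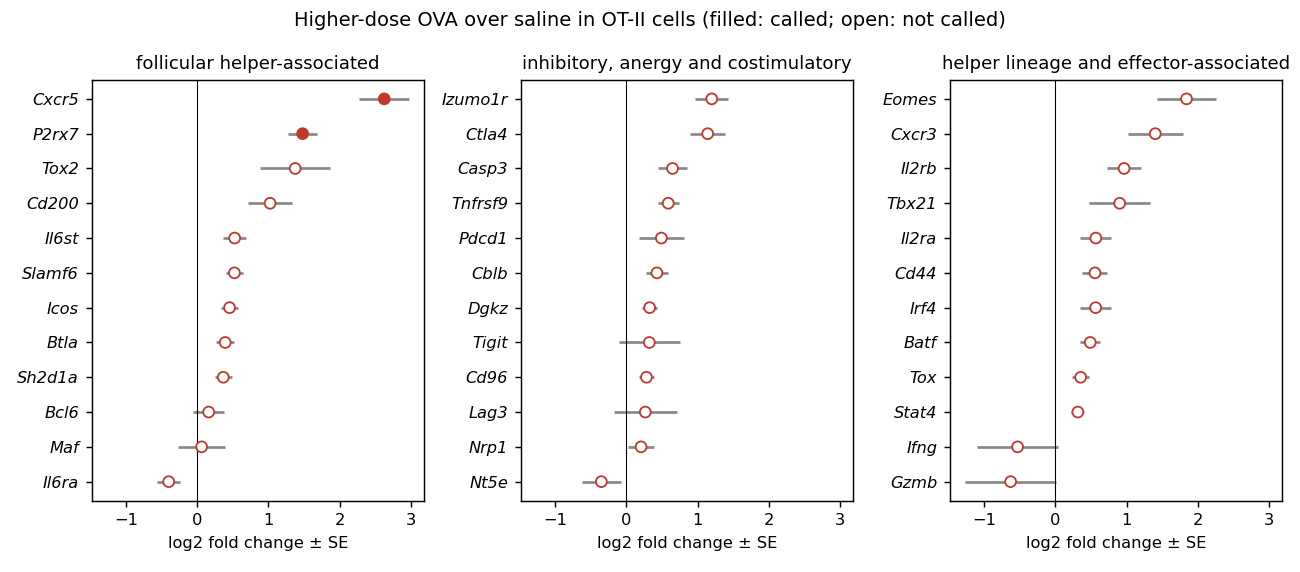
Log2 fold change of higher-dose OVA over saline with its standard error for 12 genes each of follicular helper-associated, inhibitory, anergy and costimulatory, and helper lineage and effector-associated groups, chosen with their values known. Filled points are called and open points are not. Only Cxcr5 (2.62) and P2rx7 (1.48) are filled among the genes drawn.

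No regulatory T cell-associated gene was called among 20 (median 0.14, or 0.22 without saline replicate 1). Among them 4 were higher (20%) and 1 lower (5%) at an unadjusted p under 0.05, against 3.61% and 2.3% of all genes. Izumo1r and Ctla4, given above, are members of this list too. Foxp3, the factor of regulatory T cells, overlapped at 21.2 and 18.9 CPM with higher-dose OVA and 23.3, 12.8 and 17.8 CPM with saline (log2 fold change 0.16, adjusted p = 0.992; 0.40 without saline replicate 1). It shares 16.2% of its 31-base words with another annotated gene, Flicr. Il2rb, a chain of the IL-2 receptor, had 150 and 176 CPM against 104, 65.3 and 81.8, with no overlap (0.96 ± 0.24 SE, adjusted p = 0.392).

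The 22 transcription factors of effector and exhausted cells had the second highest list median among the lists plotted here, 0.28, and none was called. In this list 6 were higher (27.3%) and 0 lower at an unadjusted p under 0.05, against 3.61% and 2.3% of all genes. Eomes, a T-box factor, had 12.9 and 13.3 CPM with higher-dose OVA, against 5.66, 2.56 and 2.75 CPM with saline (log2 fold change 1.84 ± 0.41 SE, adjusted p = 0.298). Eomes was called when saline replicate 1 and molar-equivalent OVA replicate 3 were both left out (2.31, edgeR adjusted p = 0.00803). Both of these libraries had raised markers of other cells. Only 1 of the 13 alternatives, this one, called the gene, and leaving out saline replicate 1 alone did not. The fit without both libraries called 4 genes, all higher: Eomes, Cxcr5, Fgr and Arhgap20. Tbx21, the T-box factor of Th1 cells, had 17.3 and 16.4 CPM against 9.98, 7.41 and 9.68 (0.90 ± 0.43 SE, adjusted p = 0.854). Both factors were higher in each higher-dose library than in any saline library. Tox, a factor of chronically stimulated T cells, had 141 and 143 CPM against 111, 110 and 112 (0.35, adjusted p = 0.635).

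Of 23 helper lineage genes none was called, and the median was -0.05 (0.10 without saline replicate 1). Here 4 were higher (17.4%) and 0 lower at an unadjusted p under 0.05, against 3.61% and 2.3% of all genes. Cxcr3, a chemokine receptor of Th1 cells, had 77.9 and 67.3 CPM with higher-dose OVA, against 32.6, 21.3 and 28.6 CPM with saline. Those groups lay well apart, but the adjusted p was 0.46 (log2 fold change 1.40 ± 0.39 SE). Gata3, the factor of Th2 cells, was level at 112 and 114 CPM against 107, 112 and 110. Il2, a T cell growth factor, had 1.67 and 1.73 CPM with higher-dose OVA and 0.316, 0.361 and 0.581 CPM with saline (2.02 ± 0.54 SE, adjusted p = 0.426). Ifng, the Th1 cytokine, had 1.24 and 1.73 CPM against 2.17, 2.41 and 1.86 (-0.53, adjusted p = 0.982). Of the 22 cytokine and TNF ligand genes tested, none was called, while 4 were higher (18.2%) and 0 lower at an unadjusted p under 0.05. The list summed to 3271 and 3433 CPM with higher-dose OVA and to 3389, 3179 and 3300 CPM with saline.

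Receptor signalling and early activation genes were mixed. None of 37 was called, and the median log2 fold change was -0.20 (-0.06 without saline replicate 1). Yet 10 were higher (27%) and 1 lower (2.7%) at an unadjusted p under 0.05, against 3.61% and 2.3% of all genes. Batf, an AP-1 family factor, had 87.7 and 82.0 CPM with higher-dose OVA against 66.0, 56.0 and 59.4 with saline (0.49, adjusted p = 0.515), and Irf4, its partner factor, had 24.6 and 22.7 CPM against 14.9, 16.3 and 16.7 (0.56, adjusted p = 0.758). Tnfrsf9, the costimulatory receptor 4-1BB, had 43.0 and 43.3 CPM against 34.1, 26.4 and 25.6 (0.59, adjusted p = 0.392). The immediate early gene Nr4a1, in contrast, had 391 and 181 CPM against 285, 249 and 328, so that its higher-dose libraries lay on both sides of saline. Immediate early genes also belong to the list of handling stress and heat shock, where 28 of 32 log2 fold changes were negative. None was called there, and the median was -0.46. On that list 0 were higher and 5 lower (15.6%) at an unadjusted p under 0.05. Junb had 3446 and 1510 CPM with higher-dose OVA, against 4966, 3457 and 3632 CPM with saline. The summed level of the list was 21230 and 13560 CPM with higher-dose OVA and 22450, 25310 and 19870 CPM with saline, and its part in the signalling genes was not tested.

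Most cell cycle genes had positive log2 fold changes, and none was called. Of 48 mitosis and chromosome segregation genes 42 had a positive log2 fold change. Their median was 0.44, and 0.90 without saline replicate 1. Among these 48, 8 were higher (16.7%) and 1 lower (2.08%) at an unadjusted p under 0.05, against 3.61% and 2.3% of all genes. The summed level was 1444 and 1502 CPM with higher-dose OVA, against 1144, 1118 and 1114 CPM with saline, so that the groups did not overlap. Mki67, the marker of cycling cells, had 8.61 and 14.8 CPM against 5.42, 0.619 and 1.61 (2.20 ± 0.80 SE, adjusted p = 0.723; 3.41 without saline replicate 1, adjusted p = 0.311). Smc4, a condensin subunit and the most abundant of those named here, had 783 and 815 CPM against 509, 592 and 606 (0.49, adjusted p = 0.298). This 1 gene made up a large part of the summed level and of its difference between the groups. Kif23, a kinesin of cell division, lay below saline at 14.5 and 13.8 CPM against 17.6, 21.0 and 19.3. Of 40 DNA replication genes 30 had positive values, with a median of 0.17 (0.34 without saline replicate 1) and none called. Of these 40, 9 were higher (22.5%) and 0 lower at an unadjusted p under 0.05.

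**Figure D4:**
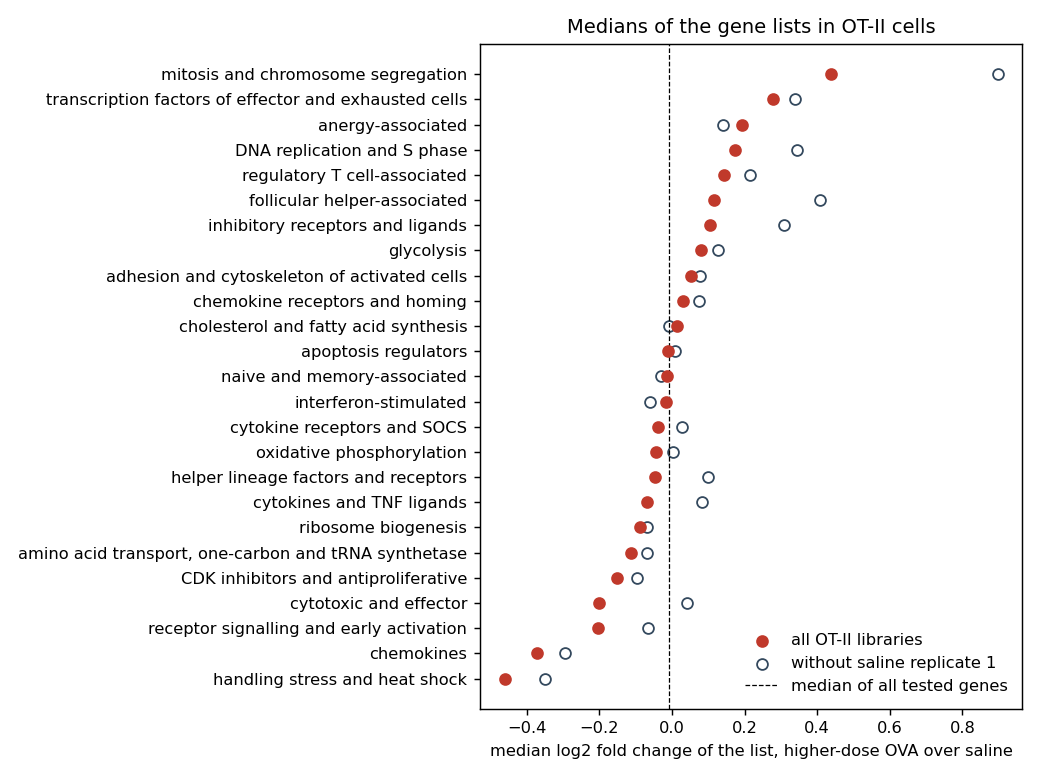
Median log2 fold change of higher-dose OVA over saline for each gene list, with all OT-II libraries in the fit (filled) and without saline replicate 1 (open). The dashed line is the median of all genes, -0.01. The mitosis list lies highest in both, at 0.44 and 0.90, and the handling stress list lowest, at -0.46 and -0.35.

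Genes of naive and recirculating cells had a median log2 fold change of -0.01, and none of 34 was called. At an unadjusted p under 0.05, 2 were higher (5.88%) and 4 lower (11.8%), against 3.61% and 2.3% of all genes. Both higher-dose libraries were above every saline library for 4 genes (11.8%) and below for 7 (20.6%). Over all genes these shares were 11% and 10%. Klf2, the factor that keeps the exit receptor S1pr1 on, had 635 and 551 CPM with higher-dose OVA, against 728, 771 and 778 CPM with saline (log2 fold change -0.36, adjusted p = 0.597). Ly6c1, a surface protein low on follicular helper and anergic cells in mice, had 352 and 294 CPM against 487, 444 and 476 (-0.54, adjusted p = 0.46), although it shares 46.8% of its 31-base words, mostly with Ly6c2. Both genes were lower in each higher-dose library. Tcf7 (0.08), a transcription factor of naive cells, and Ccr7 (-0.02), their lymph node homing receptor, overlapped between the groups. Among homing genes Cxcr5 was the single call of 33, with 7 higher (21.2%) and 1 lower (3.03%) at an unadjusted p under 0.05. The integrin chain Itgb1, raised on antigen-experienced cells, had 243 and 244 CPM against 150, 137 and 177 (0.65 ± 0.16 SE, edgeR adjusted p = 0.392).

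The remaining lists held no call. Among 33 cytotoxic and effector genes the median was -0.20 (0.04 without saline replicate 1). Of them 1 was higher (3.03%) and 1 lower (3.03%) at an unadjusted p under 0.05, against 3.61% and 2.3% of all genes. Interferon-stimulated (49 genes, -0.02), oxidative phosphorylation (52 genes, -0.04), glycolysis (24 genes, 0.08) and cholesterol synthesis genes (31 genes, 0.01) had medians close to that of all genes. Chemokine genes (8) had a median of -0.37 and CDK inhibitors (21) one of -0.15. Bcl2l1, which encodes the survival protein Bcl-xL, had 43.6 and 43.7 CPM with higher-dose OVA, against 29.3, 27.2 and 31.9 CPM with saline (0.57 ± 0.15 SE, adjusted p = 0.416).

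Against the lower dose of free OVA, tested directly, no gene was called by edgeR, while 792 (5.37%) had an unadjusted p under 0.05 and DESeq2 called 46. The lowest adjusted p, 0.0538, was shared by Lad1 and Irf2bp2. Irf2bp2 had 128 and 101 CPM with higher-dose OVA, against 234, 216 and 234 CPM with molar-equivalent OVA (log2 fold change -0.99 ± 0.13 SE). Lad1 had 19.6 and 17.3 CPM against 7.14, 7.84 and 7.66 (1.29 ± 0.17 SE). Cxcr5 had 51.9 and 53.1 CPM against 8.58, 15.01 and 19.8 (1.86 ± 0.34 SE), and P2rx7 had 38.9 and 34.9 CPM against 13.2, 17.7 and 17.4 (1.20 ± 0.20 SE), both with an adjusted p of 0.302. For these 4 genes the doses did not overlap; over all genes both higher-dose libraries were above every molar-equivalent library for 12% and below for 10.4%.

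Against A8B1-OVA, 198 genes were called (1.34%), 77 higher (0.522%) and 121 lower (0.82%) with higher-dose OVA. Leaving out 1 library changed this number to between 6 (without higher-dose OVA replicate 2) and 210, with 22 without higher-dose OVA replicate 3, 41 without A8B1-OVA replicate 1 and 43 without its replicate 2. By list, 5 of 22 transcription factors of effector and exhausted cells were called lower and 2 higher, 3 of 21 inhibitory receptors and ligands lower and 0 higher, and 0 of 33 cytotoxic and effector genes lower and 2 higher. Tnfrsf9 had 43.0 and 43.3 CPM, against 350, 387 and 362 CPM with A8B1-OVA (log2 fold change -3.08 ± 0.17 SE, edgeR adjusted p = 5.88e-06). Eomes had 12.9 and 13.3 CPM against 111, 146 and 93.6 (-3.16 ± 0.45 SE, adjusted p = 0.00852). The groups of both genes were far apart, while over all genes both higher-dose libraries were above every A8B1-OVA library for 14.1% and below for 14.2%.

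Pdcd1 (-1.68), Cd200 (-1.59), Egr2 (-1.52), Bcl6 (-1.3), Izumo1r (-1.22) and Tox (-0.74) were likewise called lower with higher-dose OVA than with A8B1-OVA. The chemokine gene Xcl1 had 0.363 and 0.754 CPM with higher-dose OVA and 14.01, 14.5 and 12.97 CPM with A8B1-OVA (-4.63 ± 0.55 SE, adjusted p = 0.00318). Fibcd1 (-5.78), Olfml3 (-3.61), Trpm1 (-3.43) and Arhgap20 (-3.32) were the other called genes with the lowest values. Of 34 naive and memory-associated genes 7 were called higher, 1 lower and 26 not, and the named ones among those higher had log2 fold changes of 1.28 for Ly6c1, 1.11 for Il7r, which encodes the IL-7 receptor, and 0.91 for Klf2. The highest values among called genes of at least 5 CPM were those of Dntt (1.52), Prdm1 (1.32), Ly6c1, Slc16a5 (1.16) and Pdlim4 (1.15).

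The 4 genes called against saline differed in how they compared with A8B1-OVA. Cxcr5 had 51.9 and 53.1 CPM with higher-dose OVA, against 84.6, 106 and 56.8 CPM with A8B1-OVA, and was not called (-0.65 ± 0.35 SE, adjusted p = 0.478). P2rx7 had 38.9 and 34.9 CPM against 27.9, 33.8 and 20.4, and was not called either (0.43 ± 0.20 SE, adjusted p = 0.406). Irf2bp2 was called lower, at 128 and 101 CPM against 234, 228 and 245 (-1.04 ± 0.13 SE, adjusted p = 0.00509). Higher-dose OVA was thus the OT-II treatment with the lowest Irf2bp2 in both of its libraries, although the difference from molar-equivalent OVA did not pass the test. Gm5157 averaged 1.85 ± 0.485 CPM with higher-dose OVA (SD, n = 2) and 1.33 ± 0.524 CPM with A8B1-OVA (SD, n = 3).

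**Figure D5:**
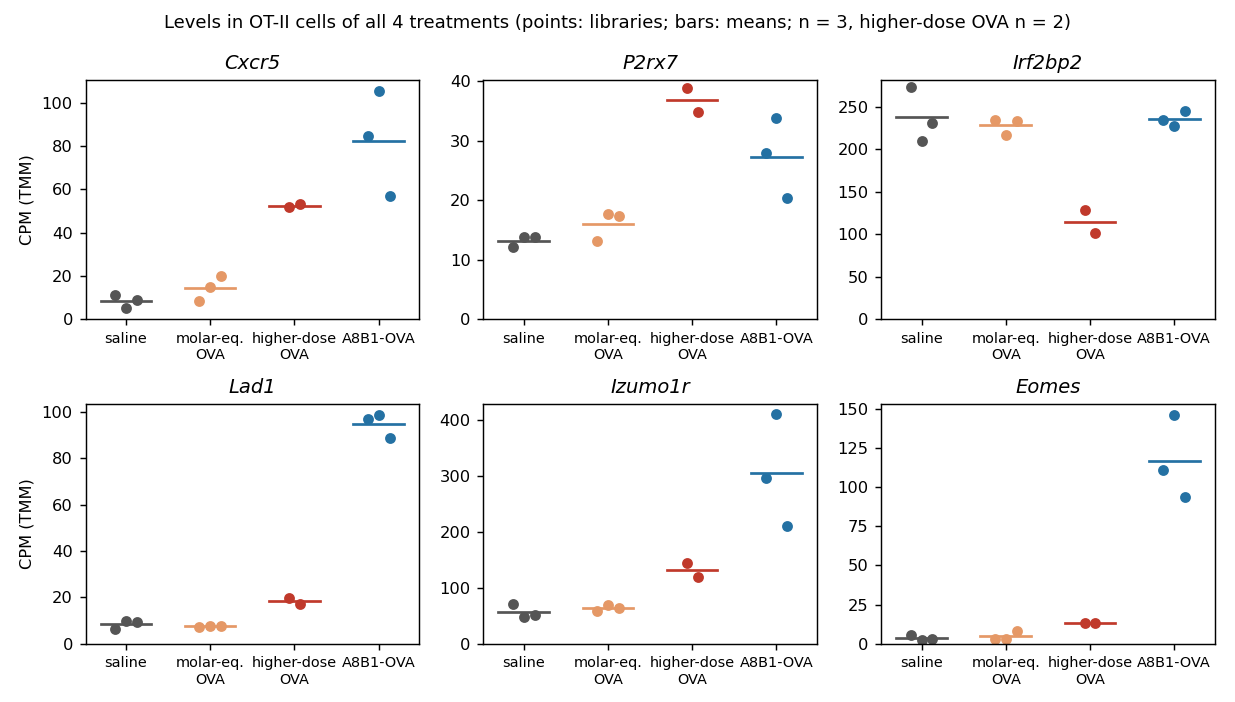
TMM-normalised CPM per OT-II library for 6 genes, in the order saline, molar-equivalent OVA, higher-dose OVA and A8B1-OVA, with bars at the group means. Irf2bp2 is lower with higher-dose OVA (101 and 128 CPM) than with any other treatment, while Lad1 and Eomes are far higher with A8B1-OVA than with free OVA.

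Over all OT-II libraries the first principal component (21.4% of the variance) placed higher-dose OVA at 2.97 and -3.38, between saline (22.2 to 28.95) and molar-equivalent OVA (15.7 to 43.8) on one side and A8B1-OVA (-62.3 to -38.5) on the other. The summed mitosis list also placed higher-dose OVA between A8B1-OVA and the other treatments. It was 1114 to 1144 CPM with saline, 1121 to 1223 with molar-equivalent OVA, 1444 and 1502 with higher-dose OVA and 1648 to 2162 with A8B1-OVA. Saline and molar-equivalent OVA overlapped. In the saline and higher-dose libraries a large part of this sum was Smc4, as given above.

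The response of OT-II cells was set against that of OT-I cells, the CD8 T cells sorted from mice of the same treatments, in 1 fit of all 23 libraries. One gene of 15235 differed (0.00656%): Nrp1, which encodes neuropilin-1, a receptor of regulatory and tolerant T cells. By DESeq2 71 genes differed, and 772 (5.07%) had an unadjusted p under 0.05 with edgeR. Nrp1 had 31.7 and 27.3 CPM in OT-II cells with higher-dose OVA, against 23.3, 21.7 and 31.5 CPM with saline. In OT-I cells it had 22.3, 26.4 and 63.1 CPM with higher-dose OVA, against 3.31, 2.97 and 3.25 CPM with saline. The 4 CD4 T cell markers summed to 326 CPM in OT-I higher-dose OVA replicate 1, against 68.9 to 111 CPM in the other OT-I libraries, and that library had the lowest Nrp1 of its group. The OT-II groups overlapped and the OT-I groups did not, and the difference between the responses was -3.34 ± 0.48 (SE, log2, edgeR adjusted p = 0.0161), or -3.63 without that library (adjusted p = 0.00141, within 6.38e-09 to 0.309 over the alternatives). For Cxcr5 that difference was 0.56, for P2rx7 -0.29 and for Irf2bp2 -1.07, none of them called. Irf2bp2 had 180, 199.5 and 213 CPM in OT-I cells with higher-dose OVA and 190 to 195 CPM with saline, whereas in OT-II cells it was lower with higher-dose OVA; the test of that difference gave an adjusted p of 0.684.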

How the data were processed

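Polyadenylated RNA was measured in sorted T cells. The submitters' processing notes name bcl2fastq, kallisto 0.46.1 and the build GRCm38. The authors deposited estimated counts for 21900 protein-coding genes in 23 libraries, all whole numbers, so rounding them to whole numbers changed nothing. No source used here gives the annotation release, the strand or the summing to genes. In the table, 0 columns were left unused. The labels do not say that libraries are separate beyond pools of 3 mice, so p-values measure the spread between these libraries.

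Genes with low counts were removed with filterByExpr (minimum count 10, minimum total 15). The 11 OT-II libraries were fitted together in edgeR 4.0.16 (R 4.3.3; TMM factors, 1 coefficient for each of 4 groups, no block, quasi-likelihood test), so the spread is shared with groups outside the comparison. Calls used a Benjamini-Hochberg adjusted p under 0.05 over all tested genes. Each SE is the absolute log2 fold change divided by the square root of the quasi-likelihood F statistic. It thus restates the test and is not a separate measure of spread. The difference from OT-I used 1 fit of 8 groups, whose TMM factors differ slightly. CPM use TMM factors, but sums of lists use the plain total. The alternatives were relative log expression factors, no and a stricter filter, a replicate block, DESeq2 1.42.0, only the compared libraries, both cell types in 1 fit, leaving out each library in turn, a block of OT-I and OT-II libraries of the same treatment and number (added after seeing the data), and leaving out libraries with raised markers of other cells (OT-II saline 1 and molar-equivalent OVA 3, and in the fit of both cell types also OT-I saline 1, molar-equivalent OVA 2 and higher-dose OVA 1), the last chosen after seeing the data. The fit was tested on simulated data.

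The rule for named genes took called genes by fold change (means of at least 5 CPM, no overlap) or significance, and from each list the called members with a few uncalled ones of high level or defining role. Members and lists were chosen with earlier results of these data known. Names outside the rule (Gm5157, the genes next in adjusted p and further uncalled list members) were chosen after their values were seen. Of the identifiers 21806 were in GENCODE M21, which gave positions and transcripts. Sharing of sequence was counted in 31-base words. RefSeq promoters matched P2rx7 and Irf2bp2 by symbol.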

Additional observations from a re-analysis of the deposited data

Results flagged for a closer look

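Nrp1 was singled out because the effect of higher-dose OVA against saline differed between OT-II and OT-I cells by a direct test (interaction log2 difference -3.34, edgeR adjusted p = 0.0161). In OT-II cells its log2 fold change was 0.21 (adjusted p = 0.970). The call was lost without OT-I saline replicate 1, 2 or 3, OT-II saline replicate 3, or OT-II higher-dose OVA replicate 2 or 3. OT-I higher-dose OVA replicate 3, at 63.1 CPM, had more than the other libraries of its group.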

How the results depend on the processing

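Against saline, 4 genes were called with relative log expression factors, 7 with no filter and 7 with a stricter one, 81 by DESeq2, 13 in 1 fit of both cell types, 0 with only the compared libraries and 4 without the libraries with raised markers, of which 1 was shared with the full set (0 to 4 when 1 library was left out). Against molar-equivalent OVA the numbers were 2 with no filter, 2 with a stricter one, 46 by DESeq2 and 2 without the raised-marker libraries (0 with any 1 library left out). Against A8B1-OVA they were 698 by DESeq2, 90 with only the compared libraries and 122 without the raised-marker libraries (6 to 210 with 1 library left out). For the difference from OT-I they were 2 with no filter, 2 with a stricter one, 71 by DESeq2, 6 with only the 4 groups of the contrast and 5 without the raised-marker libraries (0 to 3 with 1 library left out). The cause was not tested. A group left with 1 library was assumed to vary like the others.

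The labels do not say whether replicate numbers pair the higher-dose and saline libraries of OT-II cells. Their same-numbered deviations from the group means correlated at -0.02 and -0.02. With 2 higher-dose libraries, the deviations of each are the exact opposite of the other's. These values therefore cannot show whether the numbers mark pairs. With the replicate block, 0 genes were called against saline, 0 against molar-equivalent OVA, 44 against A8B1-OVA and 4 for the difference from OT-I. Between OT-I and OT-II libraries of the same treatment and number, 6 of 11 correlations were over 0.1 (-0.026 to 0.28), among them all 3 saline pairs. These correlations leave unsettled whether same-numbered libraries came from the same mice, which the labels do not say. The main fit took no pairs, so the difference from OT-I ignores any sharing of mice. With treatment and number as a replicate block, a fit added after seeing the data, 7 genes differed, Nrp1 among them (-3.46, adjusted p = 0.0158).

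Some uncalled genes changed sign. With 1 library left out, Bcl6 ran from -0.11 (without higher-dose OVA replicate 3) to 0.39, Maf from -0.12 (without saline replicate 2) to 0.29, Foxp3 from -0.034 (without saline replicate 2) to 0.40, Nr4a1 from -0.67 to 0.45 (without higher-dose OVA replicate 3) and Ccr7 from -0.13 to 0.086 (without higher-dose OVA replicate 3). With the replicate block Nr4a1 was 0.11 and Ccr7 0.017, and without the raised-marker libraries Ccr7 was 0.057.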
